A study of Mus musculus with 8 samples.

Results

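Cyclins, cyclin-dependent kinases (CDKs), CDK inhibitors and the E2F and DREAM genes that time their transcription were described here in mouse cells labelled renal fibroblasts, with and without reduced Suv39h1. The 49 genes were chosen by symbol, and 48 of them were found among the 22322 genes of the deposited table. Lin54, a DNA-binding subunit of MuvB, is not analysed here except for its promoters. A filter on low counts kept 13337 genes for testing, 47 of them members, and Cdkn3 did not pass it.

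The 8 libraries come from primary cells that the labels call renal fibroblasts, all activated with TGF-β at 5 ng/ml for 48 hours, so no unstimulated group enters the comparison. The 4 Ad-GFP libraries, labelled wild type, were from cells infected with an adenovirus carrying GFP. The 4 Ad-Cre libraries, labelled suv39h1 knockdown, were from cells infected with an adenovirus carrying Cre recombinase. Suv39h1 is a methyltransferase of lysine 9 of histone H3. The labels used here do not describe the allele that Cre acts on, and they name no separate culture or animal for any replicate. The p-values therefore reflect only spread among these libraries, which may be technical.

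A cell enters the cycle when D-type cyclins with CDK4 and CDK6, and then E-type cyclins with CDK2, phosphorylate the pocket proteins RB1, RBL1 (p107) and RBL2 (p130) and free E2F factors to switch on S-phase genes. In resting cells, RBL1 or RBL2 with E2F4 or E2F5 and the MuvB core (LIN9, LIN54 and others) forms the DREAM complex, which holds both S-phase and mitotic genes silent. In cycling cells MuvB instead pairs with MYBL2 and FOXM1 to drive genes of G2 and mitosis, many of which are reached through a promoter element named the CHR, often near CCAAT boxes. TGF-β is known as a brake on this machinery in epithelial cells, in part through Cdkn2b and Cdkn1a, while fibroblasts can also proliferate under it.

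Suv39h1 (ENSMUSG00000039231; X chromosome, 8061171 to 8074760, minus strand, GRCm38) was at 29.0, 27.8, 29.3 and 29.6 CPM, the count scaled to a common library total, in Ad-GFP replicates 1 to 4 and, in the same order of replicates here and throughout, 25.3, 22.8, 21.6 and 22.6 in Ad-Cre. The groups did not overlap, and Ad-Cre held 79.6% of the Ad-GFP level (95% interval 73.5% to 86.2%, adjusted p = 3.293e-05). Since the allele is not described, reads from outside any deleted part would still count. Its exons overlap those of the antisense gene Gm14820 over 767 bases, and the length implied by its count and FPKM was 2882 to 2936 bases in Ad-GFP and 2773 to 2830 in Ad-Cre. Library totals were 15879244 to 17930632 counts in Ad-GFP and 18006938 to 23940043 in Ad-Cre, so depth moved with the group. The markers went in part against the fibroblast label: in Ad-GFP Pdgfra was at 5.14 CPM and Lum and Fap at 0.17 and 0.37 CPM, while the epithelial genes Krt8 and Cldn4 were at 1504 and 1141 CPM. Vim and Col1a1, at 251.9 and 206.6 CPM, were the highest of the fibroblast list. The 12 fibroblast markers summed to 775.7 to 821.4 CPM in Ad-GFP against 502.5 to 578.2 in Ad-Cre, with 6 falls and no rise among the 10 tested. The 18 epithelial markers summed to 6830 to 7070 and 6442 to 6495 CPM, with 6 falls and 8 rises. Of all 13337 tested genes 20.5% fell and 19.8% rose.

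Cell cycle genes were mostly lower in Ad-Cre. Of the 47 tested members 29 fell (61.7%) and 3 rose (6.38%), where 20.5% of all 13337 tested genes fell and 19.8% rose by edgeR's quasi-likelihood test at an adjusted p under 0.05. A fall of at least 1.5-fold was called for 17 members (36.2%), against 5.47% of all tested genes. The CPM of the groups did not overlap for 28 of the 47 in the lower direction (59.6%, against 18.2% of all tested genes) and for 3 in the higher (17.2% of all tested genes). The median log2 fold change was -0.33 over the members and 0.0041 over all tested genes. The members' median was -0.20 with a filter at a mean of 5 CPM and -0.21 on log2(FPKM + 1), where 36 and 42 members were tested. In the other alternatives fitted on counts it was -0.35 to -0.27. In bulk RNA, fewer cells of a kind and less RNA per cell cannot be told apart.

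**Figure D1:**
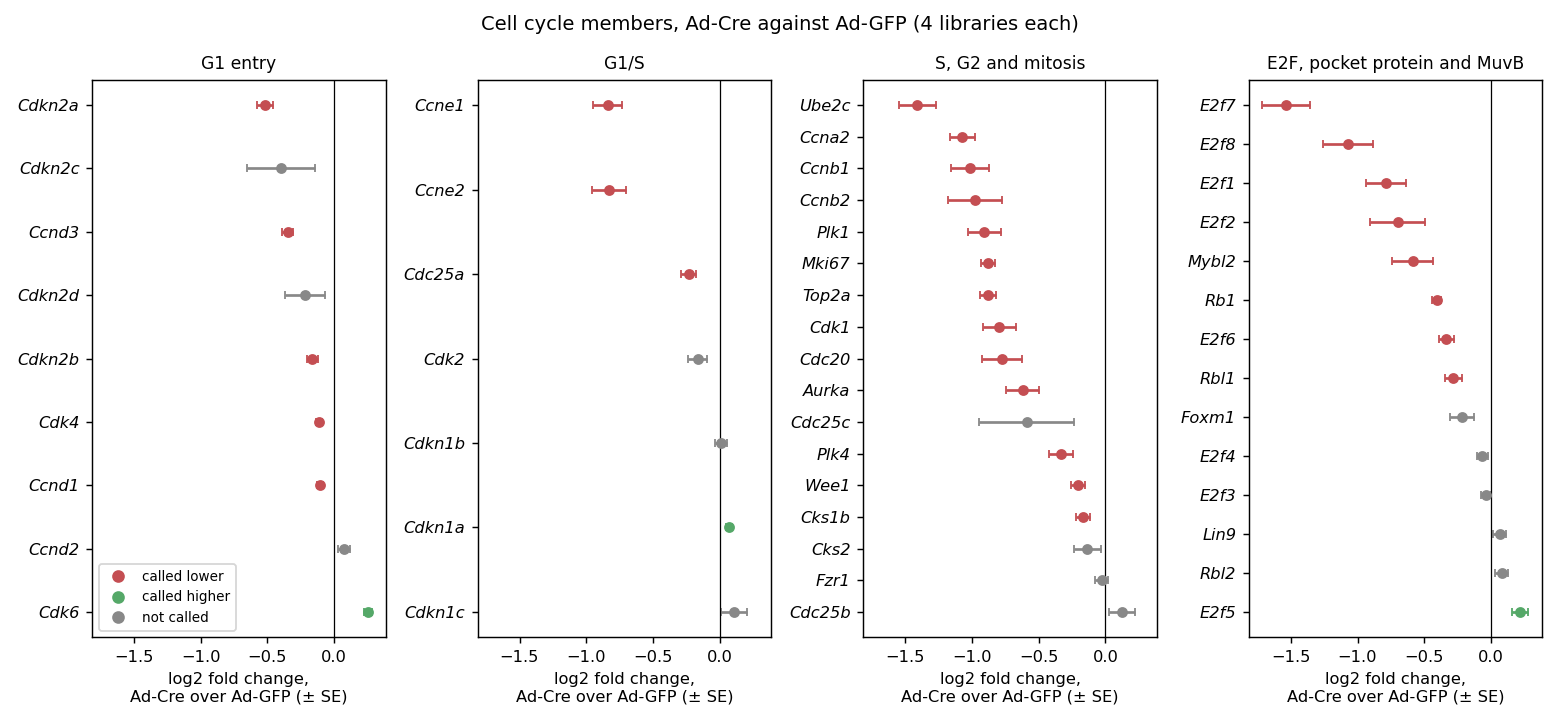
Log2 fold change of Ad-Cre over Ad-GFP (x axis, positive means higher in Ad-Cre) with its standard error for the 47 tested members (y axis), in 4 panels by phase. Red points were called lower, green higher and grey not called; E2f7, at -1.53, and Ube2c, at -1.41, lie farthest from 0.

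The counts and medians differed by phase group, a difference that was not tested. In the group of S, G2 and mitosis genes 13 of 17 tested members fell, 10 of them by at least 1.5-fold, none rose, and the median log2 fold change was -0.77. The E2F, pocket protein and MuvB group had 8 falls and 1 rise among 14, with a median of -0.31. Of 7 G1/S members 3 fell and 1 rose (median -0.17), and of 9 G1 entry members 5 fell and 1 rose (median -0.16), none of these 5 by 1.5-fold. Over its members, each group's median CPM relative to the Ad-GFP mean was 57.7% to 60.8% in the 4 Ad-Cre libraries for S, G2 and mitosis, 79.4% to 83.7% for the E2F group, 83.0% to 95.3% for G1/S and 88.2% to 93.2% for G1 entry. No single Ad-Cre library carried the mitotic falls: among the 13 fallen genes, replicates 1 to 4 were the lowest of their group 5, 3, 4 and 1 times.

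Cyclin A2, the partner of CDK2 in S phase and of CDK1 in G2, had the smallest p-value of the cyclins. Ccna2 (chromosome 3, 36564865 to 36572150) was at 11.6, 10.6, 11.0 and 11.9 CPM in Ad-GFP against 4.98, 5.72, 5.29 and 5.39 in Ad-Cre. Every Ad-Cre library was below every Ad-GFP library, at -1.07 ± 0.094 on the log2 scale (SE, 4 libraries each) with an adjusted p = 9.499e-10. The mitotic cyclin gene Ccnb1 was at 7.05, 7.69, 7.21 and 6.75 CPM in Ad-GFP against 2.18, 4.25, 3.51 and 4.03 in Ad-Cre, 49.5% of Ad-GFP (adjusted p = 2.451e-06). Replicate 1 was the lowest of the Ad-Cre libraries for this gene. Ccnb2 was at 2.41, 3.48, 3.55 and 5.44 CPM in Ad-GFP against 1.68 to 2.07 CPM in Ad-Cre, 50.7% (adjusted p = 0.0003436). Its Ad-GFP libraries were widely spread. Cdk1 (chromosome 10, 69335146 to 69352938), the kinase that these cyclins activate, was at 9.69, 11.9, 14.9 and 11.1 CPM in Ad-GFP against 6.94, 8.24, 5.19 and 6.98 in Ad-Cre. It fell to 57.7% (95% interval 48.3% to 68.9%, adjusted p = 1.226e-05), and the groups did not overlap.

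Ube2c, the ubiquitin-conjugating enzyme that works with the anaphase-promoting complex (APC/C), had the largest fall of the S, G2 and mitosis group. Its levels were 7.57, 7.30, 7.86 and 5.82 CPM in Ad-GFP against 2.35, 3.28, 2.64 and 2.40 in Ad-Cre, 37.7% of Ad-GFP (95% interval 30.9% to 45.9%, adjusted p = 6.991e-09). Plk1, the polo kinase of mitotic entry, was at 5.85, 6.42, 6.68 and 6.38 CPM in Ad-GFP against 2.74, 3.74, 3.65 and 3.26 in Ad-Cre (53.4%, adjusted p = 2.203e-06). Neither gene overlapped between groups. The APC/C activator Cdc20 was at 58.5% and the spindle pole kinase gene Aurka at 65.1%, again with no overlap. The other APC/C activator, Fzr1 (CDH1), which acts in late mitosis and G1, was at 35.2 ± 1.4 CPM in Ad-GFP against 34.5 ± 1.2 in Ad-Cre (SD, n = 4), 98.0% with a 95% interval of 91.6% to 104.9% (adjusted p = 0.6644).

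The proliferation markers had the smallest p-values of all members. Mki67, which encodes the Ki-67 antigen of cycling cells, was at 39.6, 40.8, 40.7 and 40.5 CPM in Ad-GFP against 22.6, 21.7, 20.5 and 23.2 in Ad-Cre. Top2a, the topoisomerase of chromosome condensation and segregation, was at 31.6, 37.0, 31.3 and 34.2 CPM in Ad-GFP against 18.0, 18.0, 18.5 and 18.5 in Ad-Cre. The groups of both genes were far apart. They were at 54.3% and 54.4% of Ad-GFP, with adjusted p-values of 1.989e-13 and 5.459e-12.

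Smaller falls were seen in Plk4, the kinase of centriole duplication (79.5%, adjusted p = 0.005284), in Wee1, the kinase that holds CDK1 inactive (86.6%, adjusted p = 0.003401), and in the CDK subunit gene Cks1b (89.0%, adjusted p = 0.01292). The Cks1b call was lost with DESeq2 (adjusted p = 0.0558, range over the alternatives 0.0027 to 0.0558). Its paralog Cks2 was at 10.2 ± 0.7 CPM in Ad-GFP against 9.24 ± 1.39 in Ad-Cre (SD, n = 4), 91.0% with a 95% interval of 78.9% to 104.9%. Of the CDC25 phosphatases that undo the WEE1 mark, Cdc25b was at 108.9% (interval 95.1% to 124.8%) and Cdc25c, under 1 CPM in each group's mean, at 66.4% (interval 40.0% to 110.3%), and neither passed the test. Cdkn3, a phosphatase that acts on CDKs and the member that was not tested, had 19, 10, 4 and 7 counts in Ad-GFP and 5, 5, 8 and 5 in Ad-Cre.

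**Figure D2:**
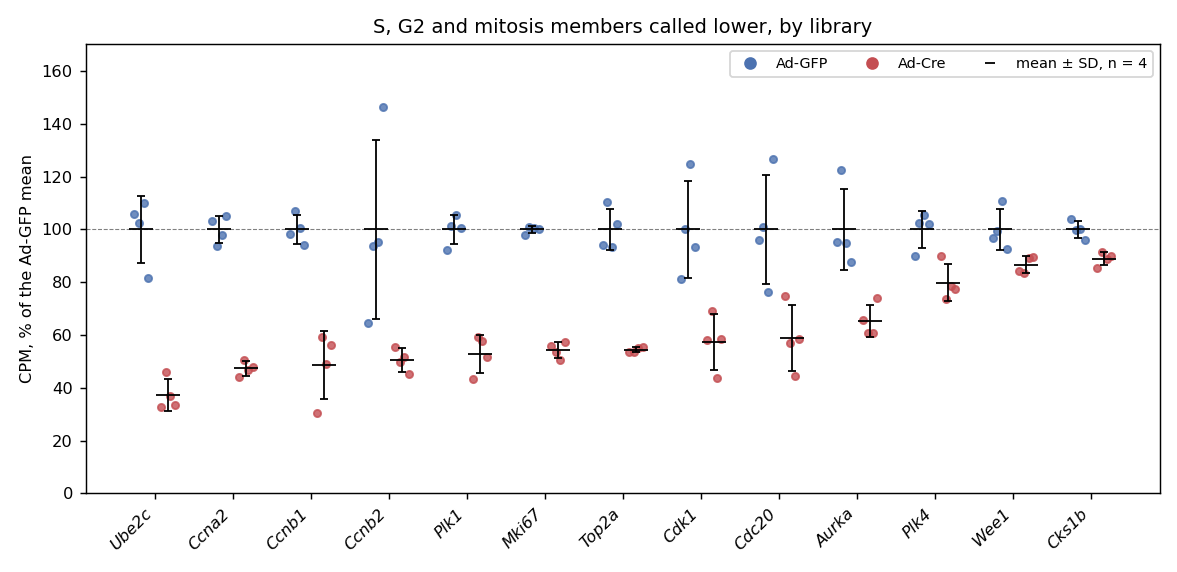
CPM of each library as a percentage of the gene's Ad-GFP mean (y axis, from 0) for the 13 S, G2 and mitosis members called lower (x axis). Blue points are Ad-GFP and red points Ad-Cre libraries, black marks give the mean ± SD of 4 libraries, and for each of the 13 every red point lies below every blue one.

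The promoters of these genes were read from RefSeq (GRCm38.p6), which gave 44 promoters of 300 bases (250 before to 50 after the start) for 37 of the 49 members. They were searched on both strands for the CHR (TTTGAA or TTTAAA), for CCAAT, and for E2F-like letters (TTCCCGC or TTGGCGC or TTCGCGC or TTGCCGC), of which TTGGCGC can overlap CCAAT read on the other strand. The stretches below were chosen after the matches were seen. Cdk1, Cdc20, Plk1, Top2a and Mki67 are the 5 fallen S, G2 and mitosis genes with a CHR in the stretch, Aurka and Ccnb2 are from the 6 fallen genes with none there, and Cks2 and Cdc25b did not pass the test. Each is the stretch before the RefSeq start that lies outside annotated exons, up to 120 bases, 5′ to 3′ on the strand of the gene, with every match of any of the 3 motifs in capitals.
Cdk1: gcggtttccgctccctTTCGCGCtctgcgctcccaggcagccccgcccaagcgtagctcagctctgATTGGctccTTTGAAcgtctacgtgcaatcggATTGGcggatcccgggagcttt
Cdc20: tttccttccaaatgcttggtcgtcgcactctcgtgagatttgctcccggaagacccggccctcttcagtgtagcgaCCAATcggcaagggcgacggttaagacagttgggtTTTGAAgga
Plk1: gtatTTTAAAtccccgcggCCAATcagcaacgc
Top2a: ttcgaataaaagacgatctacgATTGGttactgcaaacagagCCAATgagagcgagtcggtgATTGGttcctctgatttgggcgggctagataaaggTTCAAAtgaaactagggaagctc
Mki67: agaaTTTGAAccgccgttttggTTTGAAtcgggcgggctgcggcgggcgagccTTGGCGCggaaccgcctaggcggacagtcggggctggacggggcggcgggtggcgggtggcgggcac
Aurka: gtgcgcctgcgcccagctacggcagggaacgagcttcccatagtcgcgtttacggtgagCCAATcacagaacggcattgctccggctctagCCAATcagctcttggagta
Ccnb2: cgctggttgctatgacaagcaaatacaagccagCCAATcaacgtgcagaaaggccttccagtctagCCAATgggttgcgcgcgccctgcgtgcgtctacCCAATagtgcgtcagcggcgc
Cks2: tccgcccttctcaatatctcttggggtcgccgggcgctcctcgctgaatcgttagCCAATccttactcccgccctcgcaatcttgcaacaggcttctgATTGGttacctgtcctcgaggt
Cdc25b: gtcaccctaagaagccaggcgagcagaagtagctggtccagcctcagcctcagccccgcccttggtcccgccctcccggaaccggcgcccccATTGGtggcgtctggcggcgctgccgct
In order, they lie at chr10:69352939-69353058 (minus strand), chr4:118437353-118437472 (minus strand), chr7:122159402-122159434 (plus strand), chr11:99024190-99024309 (minus strand), chr7:135716380-135716499 (minus strand), chr2:172370571-172370680 (minus strand), chr9:70421555-70421674 (minus strand), chr13:51645112-51645231 (plus strand) and chr2:131186828-131186947 (plus strand). The Cdk1 stretch holds an E2F-like match and TTTGAA between ATTGGs, which are CCAAT on the other strand, Cdc20 and Plk1 hold a CHR and 1 CCAAT each, and Top2a holds 3 CCAAT matches upstream of TTCAAA, which is the CHR on the other strand. Mki67 holds a pair of TTTGAA and an E2F-like match, and the Aurka and Ccnb2 stretches, like those of Cks2 and Cdc25b, hold CCAAT matches and no CHR. The stretches of Ube2c, Plk4, Cks1b and Ccnb1 held no CHR either. Within the stretches a CHR was thus in 5 of 11 fallen genes and in 0 of 3 others, Cks2, Cdc25b and Fzr1. No stretch was cut for Cdkn3, the member that was not tested, whose CHR match is centred 108 bases upstream of the start. The counts that follow are over the whole promoters of 300 bases, which include exons and the bases after the start.

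All 11 RefSeq promoters of S, G2 and mitosis members that fell held a CHR match (no promoter of Ccna2 or Wee1 was analysed here), against 27.6% of the 32851 promoters in the table. Of the other 4 promoters of that group 1 held one, that of Cdkn3. The 95% binomial intervals, 71.5% to 100% for the fallen and 0.63% to 80.6% for the others, overlapped. The members were listed as cell cycle and DREAM genes, so a share above that of all promoters may reflect this choice. In 9 of the 11 the centre of a match lay within 50 bases of the start, a distance chosen after the positions were seen, against 8.54% of all promoters. The nearest match of Cdk1, centred 12 bases upstream, lies outside the stretch printed above, and those of Ccnb2 and Aurka are centred 7 and 20 bases after the start. Plk4 and Mki67 were the exceptions, with their nearest match centred 132 and 95 bases upstream. A CCAAT match was in 10 of the 11 and in all 4 of the others, against 37.4% of all promoters, in both sets a larger share. Over all 44 promoters, with 7 members counted at 2 promoters each, a CHR was in 15 of the 27 of members that fell and in 6 of the 17 of other members. The 15 include the 11 above, and the rest belong to Cdkn2b, Ccne1, E2f2 and E2f8. The 17 include the promoters of Lin54 and Cdkn3, genes that were not tested, and all of these held a CHR. The further CHR matches among the 17 were in promoters of Cdkn1b, Rbl2 and E2f3. An E2F-like match was in 10 of the 27 and 3 of the 17, against 9.57% of all promoters. A match describes these letters and does not show that a factor binds there.

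**Figure D3:**
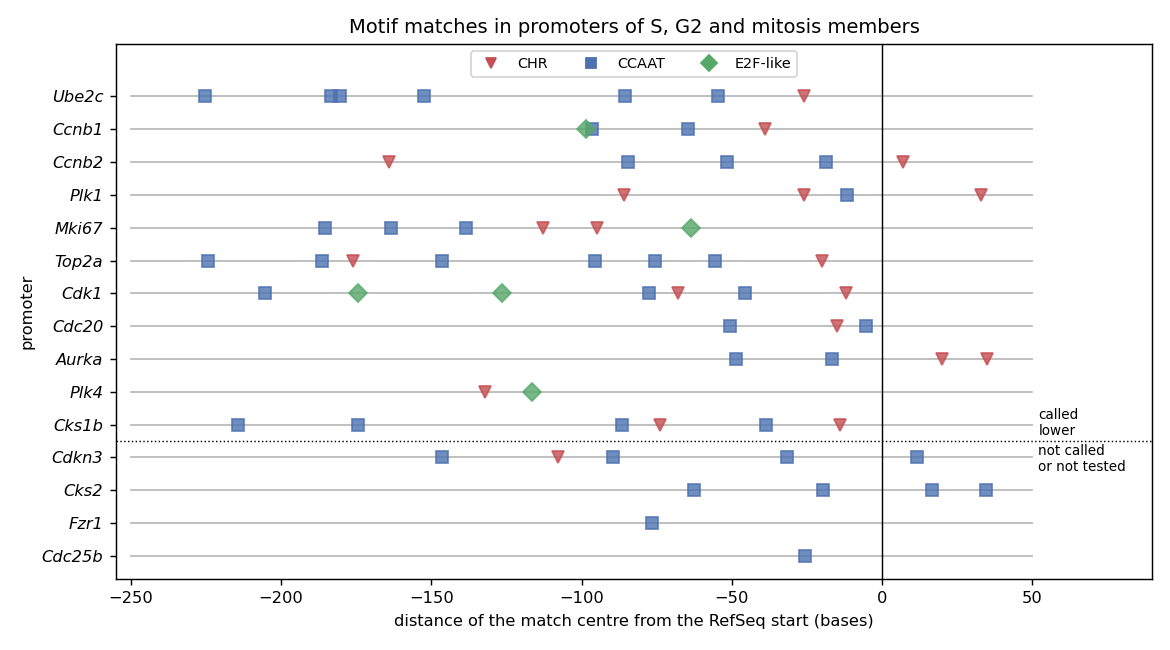
Distance of each motif match from the RefSeq start (x axis, bases, negative is upstream) in the 15 promoters of S, G2 and mitosis members (y axis). Triangles mark the CHR, squares CCAAT and diamonds E2F-like matches on either strand; the 11 promoters of genes called lower, above the dotted line, each hold a triangle, and 1 of the 4 below it does.

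The E-type cyclins, which trigger S phase with CDK2, both fell. Ccne1 was at 9.63, 8.24, 10.6 and 10.0 CPM in Ad-GFP against 5.48, 4.50, 5.62 and 5.94 in Ad-Cre, 55.9% of Ad-GFP (adjusted p = 8.79e-07). Ccne2 was at 8.31, 5.86, 7.62 and 7.13 CPM in Ad-GFP against 3.30, 4.25, 3.99 and 4.58 in Ad-Cre, 56.2% (adjusted p = 9.906e-06). Neither overlapped between groups. Their kinase gene Cdk2 did not pass the test, at 18.9, 18.6, 20.0 and 16.2 CPM in Ad-GFP against 15.8, 15.3, 17.1 and 17.6 in Ad-Cre (89.1%, interval 80.5% to 98.6%, adjusted p = 0.06389). Its groups overlapped, and it was called under 4 of 18 alternatives. Cdc25a, the phosphatase that activates CDK2, was at 30.2, 30.5, 28.0 and 32.8 CPM in Ad-GFP against 25.8, 24.1, 27.6 and 25.8 in Ad-Cre (85.0%, adjusted p = 0.001791).

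The D-type cyclins and their kinases, which receive growth factor signals in G1, did not move as 1 group: Ccnd1, Ccnd3 and Cdk4 fell, Cdk6 rose and Ccnd2 did not pass the test. Ccnd1 was at 354.5, 367.4, 360.4 and 355.2 CPM in Ad-GFP against 328.7, 335.1, 342.3 and 328.7 in Ad-Cre. The groups were separate, at 92.9% of Ad-GFP (interval 89.9% to 95.9%, adjusted p = 0.0004178). Ccnd3 fell from 60.8, 61.8, 59.6 and 59.0 CPM to 51.3, 45.2, 48.7 and 44.7 CPM (78.5%, adjusted p = 3.824e-07). Ccnd2 was at 100.8, 106.9, 106.3 and 93.5 CPM in Ad-GFP against 99.9, 117.4, 107.8 and 103.2 in Ad-Cre, and the groups overlapped (105.3%, interval 99.0% to 111.9%, adjusted p = 0.1784).

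Of the D-cyclin kinases, Cdk4 was at 329.1, 328.0, 329.8 and 326.8 CPM in Ad-GFP against 303.7, 309.4, 304.6 and 297.3 in Ad-Cre, without overlap (92.5%, adjusted p = 0.0001689). Cdk6 went the other way, at 101.9, 104.1, 94.8 and 100.5 CPM in Ad-GFP against 119.1, 123.5, 116.3 and 119.5 in Ad-Cre. It rose to 119.2% of Ad-GFP on counts (log2 fold change 0.25 ± 0.032, adjusted p = 3.793e-07). On the deposited FPKM values, which are scaled by transcript length and depth, the groups overlapped (11.29 to 16.2 against 13.03 to 15.48) and limma on log2(FPKM + 1) gave 0.04 with an adjusted p = 0.777. The length implied by the count and FPKM of Cdk6 was 5890 to 9297 bases in Ad-GFP and 7448 to 9096 bases in Ad-Cre, whereas for Cdk4 it was 1676 to 1746 bases over all libraries. The part of the assigned length in the Cdk6 rise was not tested.

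**Figure D4:**
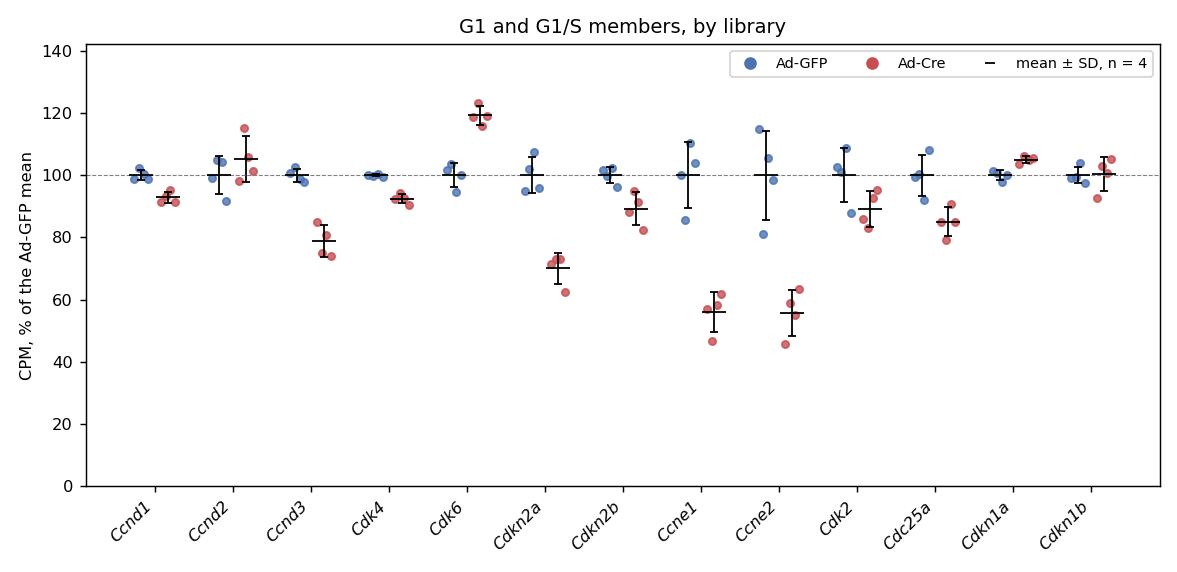
CPM of each library as a percentage of the gene's Ad-GFP mean (y axis, from 0) for 13 G1 and G1/S members (x axis). Blue points are Ad-GFP and red points Ad-Cre libraries, with the mean ± SD of 4 libraries in black; Ccne1 and Ccne2 are near 56% in Ad-Cre, Ccnd1 and Cdk4 near 93%, and Cdk6 near 119%.

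The CDK inhibitors did not move one way. Of the Cip/Kip inhibitors of CDK2 and CDK1 complexes, Cdkn1a (p21), a p53 and TGF-β target, was at 409.2, 406.7, 394.8 and 403.9 CPM in Ad-GFP against 417.8, 427.9, 423.9 and 425.4 in Ad-Cre. The groups did not overlap, but the rise was to 105.0% (interval 101.9% to 108.2%, adjusted p = 0.008929). It was not called with upper-quartile factors (0.05, adjusted p = 0.0578) or on log2(FPKM + 1) (0.044, adjusted p = 0.115). Cdkn1b (p27) was at 39.7, 39.8, 41.5 and 39.0 CPM in Ad-GFP against 37.0, 41.2, 40.3 and 42.0 in Ad-Cre, 100.6% (interval 94.2% to 107.5%). Cdkn1c (p57), at 107.6% (interval 94.0% to 123.3%), did not pass the test.

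Among the INK4 inhibitors of CDK4 and CDK6, the pair next to each other on chromosome 4 fell. Cdkn2a (89274471 to 89294653), which yields p16INK4A and p19ARF from separate promoters, was at 27.6, 29.8, 31.3 and 27.9 CPM in Ad-GFP against 20.8, 21.2, 21.3 and 18.2 in Ad-Cre. It fell to 69.9% (interval 64.1% to 76.2%, adjusted p = 1.548e-07), and gene-level counts do not tell its products apart. Cdkn2b (p15; 89306299 to 89311039) was at 71.5, 70.2, 71.8 and 67.7 CPM in Ad-GFP against 62.0, 66.7, 64.3 and 57.9 in Ad-Cre, 89.2% (adjusted p = 0.002056). Both genes were lower in every Ad-Cre library than in any Ad-GFP library. Cdkn2c (p18) was at 1.32, 1.66, 2.72 and 1.94 CPM in Ad-GFP against 1.57, 1.47, 0.82 and 1.90 in Ad-Cre, with overlap, and at this depth its interval was wide (75.9%, 53.0% to 108.6%). Cdkn2d (p19INK4D), at 86.0% (69.4% to 106.5%), did not pass the test.

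Members of the E2F family differed. The atypical repressors E2f7 and E2f8, themselves E2F targets, had the largest falls of the family. In the E2F, pocket protein and MuvB group the 5 falls of at least 1.5-fold were all in genes with a mean under 5 CPM. These were E2f1, E2f2, E2f7, E2f8 and Mybl2. E2f7 was at 5.62, 3.76, 4.02 and 4.44 CPM in Ad-GFP against 1.40, 1.56, 1.25 and 1.90 in Ad-Cre, 34.5% of Ad-GFP (interval 26.7% to 44.6%, adjusted p = 1.409e-07). E2f8 was at 4.64, 5.14, 5.32 and 4.50 CPM against 3.58, 1.85, 1.44 and 2.63 CPM, 47.7% (interval 36.4% to 62.4%, adjusted p = 5.802e-05). The Ad-Cre libraries of both genes were all below the Ad-GFP ones. The stretch before the RefSeq start of E2f8, at chr7:48881597-48881716 (minus strand), carries all 3 motifs in its 120 bases, with CCAAT (as ATTGG) running into an E2F-like match and a CHR (as TTCAAA) downstream. That of E2f7 held 1 E2F-like and 2 CCAAT matches and no CHR.
E2f8: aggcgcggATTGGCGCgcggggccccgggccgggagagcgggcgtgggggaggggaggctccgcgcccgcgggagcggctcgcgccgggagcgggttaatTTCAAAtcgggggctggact
Of the activators that drive S-phase entry, E2f1 was at 4.24, 4.37, 4.85 and 4.44 CPM in Ad-GFP against 2.97, 2.36, 2.98 and 2.13 in Ad-Cre (57.9%, adjusted p = 0.0001521), and E2f2 was at 61.6% (adjusted p = 0.008345). E2f3, the most abundant activator, was at 43.3 ± 0.9 and 42.2 ± 0.6 CPM (SD, n = 4), 97.4% with an interval of 91.9% to 103.3%.

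Of the E2Fs of resting cells, E2f5 rose and E2f4 did not pass the test. E2f4, the DREAM partner, was at 54.8, 54.0, 57.1 and 53.8 CPM in Ad-GFP against 49.4, 54.0, 53.6 and 52.7 in Ad-Cre, with overlap (95.6%, interval 90.3% to 101.2%, adjusted p = 0.2052). E2f5 went from 18.3, 17.3, 17.4 and 17.3 CPM to 19.1, 21.1, 20.6 and 20.6 CPM, without overlap (116.1%, adjusted p = 0.005754). E2f6, a repressor that works without pocket proteins, was at 34.3, 35.4, 35.2 and 37.9 CPM in Ad-GFP against 28.6, 24.9, 30.8 and 29.2 in Ad-Cre, a fall to 79.2% (adjusted p = 4.054e-05).

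Of the pocket protein genes Rb1 and Rbl1 fell and Rbl2 did not pass the test. Rb1 (chromosome 14, 73183673 to 73325822) was at 113.6, 117.3, 111.5 and 122.9 CPM in Ad-GFP against 86.2, 91.5, 87.3 and 85.6 in Ad-Cre. The gap between the groups was wide, and Rb1 fell to 75.4% (interval 71.9% to 79.1%, adjusted p = 2.612e-10). Rbl1, an E2F target, was at 21.6, 21.2, 21.6 and 20.1 CPM against 16.6, 18.7, 15.9 and 18.1 CPM, 82.2% (adjusted p = 0.000981). Rbl2, the pocket protein of quiescence, was at 34.9, 30.9, 33.6 and 34.9 CPM in Ad-GFP against 36.0, 35.0, 35.9 and 34.9 in Ad-Cre (105.7%, interval 98.6% to 113.3%, adjusted p = 0.2014). The MuvB gene Lin9 was at 104.6% (interval 97.4% to 112.2%).

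Of the activators that MuvB pairs with in cycling cells, Mybl2 fell and Foxm1 did not pass the test. Mybl2 was at 4.93, 4.31, 3.43 and 4.75 CPM in Ad-GFP against 2.57, 2.57, 3.46 and 2.99 in Ad-Cre. It fell to 66.6% (interval 53.4% to 83.0%, adjusted p = 0.003666), though its groups overlapped, Ad-GFP replicate 3 lying just below Ad-Cre replicate 3. Foxm1 was at 10.3, 8.90, 10.8 and 10.5 CPM in Ad-GFP against 9.07, 8.41, 8.41 and 8.84 in Ad-Cre, 85.9% (interval 75.7% to 97.5%). It just missed the threshold (adjusted p = 0.05082) and was called in 5 of 18 alternatives, with a lowest adjusted p = 0.0212.

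Levels per length, from the deposited FPKM values, show which family member dominates. In Ad-GFP Ccnd1 was at 96.7 ± 1.7 FPKM (SD, n = 4), Ccnd3 at 35.0 ± 2.4 and Ccnd2 at 17.4 ± 1.2, with no overlap between neighbours in that order, and the order was the same in Ad-Cre. Ccnd1 held 64.8% ± 1.0 of the D-type cyclin FPKM in Ad-GFP and 65.5% ± 0.8 in Ad-Cre. Cdk4, at 191.7 ± 2.3 FPKM in Ad-GFP, held 85.9% ± 1.5 of the sum over Cdk1, Cdk2, Cdk4 and Cdk6 and 86.8% ± 0.3 in Ad-Cre. Cdk1 went from 4.33% ± 0.81 to 2.69% ± 0.64 of that sum. Below Cdk4, Cdk6 (13.9 ± 2.1 FPKM), Cdk1 (9.69 ± 1.90) and Cdk2 (8.05 ± 0.70) stood close in Ad-GFP, and neighbours in that order overlapped.

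Shares among the inhibitors and the RB-E2F genes were computed in the same way. Cdkn1a was at 218.0 ± 3.1 FPKM in Ad-GFP and 224.7 ± 2.6 in Ad-Cre, 91.6% and 92.2% of the Cip/Kip sum. Cdkn2b (50.9 ± 1.3 FPKM) was above Cdkn2a (33.7 ± 2.0) in Ad-GFP, without overlap. The Cdkn2b share of the INK4 sum was 57.8% ± 1.2 in Ad-GFP and 63.0% ± 0.6 in Ad-Cre, and the Cdkn2a share of the INK4 sum was 38.2% ± 1.2 in Ad-GFP and 32.5% ± 0.8 in Ad-Cre. E2f3 held 80.7% ± 1.0 of the activator E2F sum in Ad-GFP and 87.4% ± 1.3 in Ad-Cre. E2f4 held 50.2% ± 0.9 of the repressor E2F sum in Ad-GFP and 51.8% ± 1.3 in Ad-Cre. Rb1 held 69.1% ± 1.3 of the pocket protein sum in Ad-GFP and 63.6% ± 0.6 in Ad-Cre, while the Rbl2 share was 18.9% ± 1.0 and 24.4% ± 0.8.

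**Figure D5:**
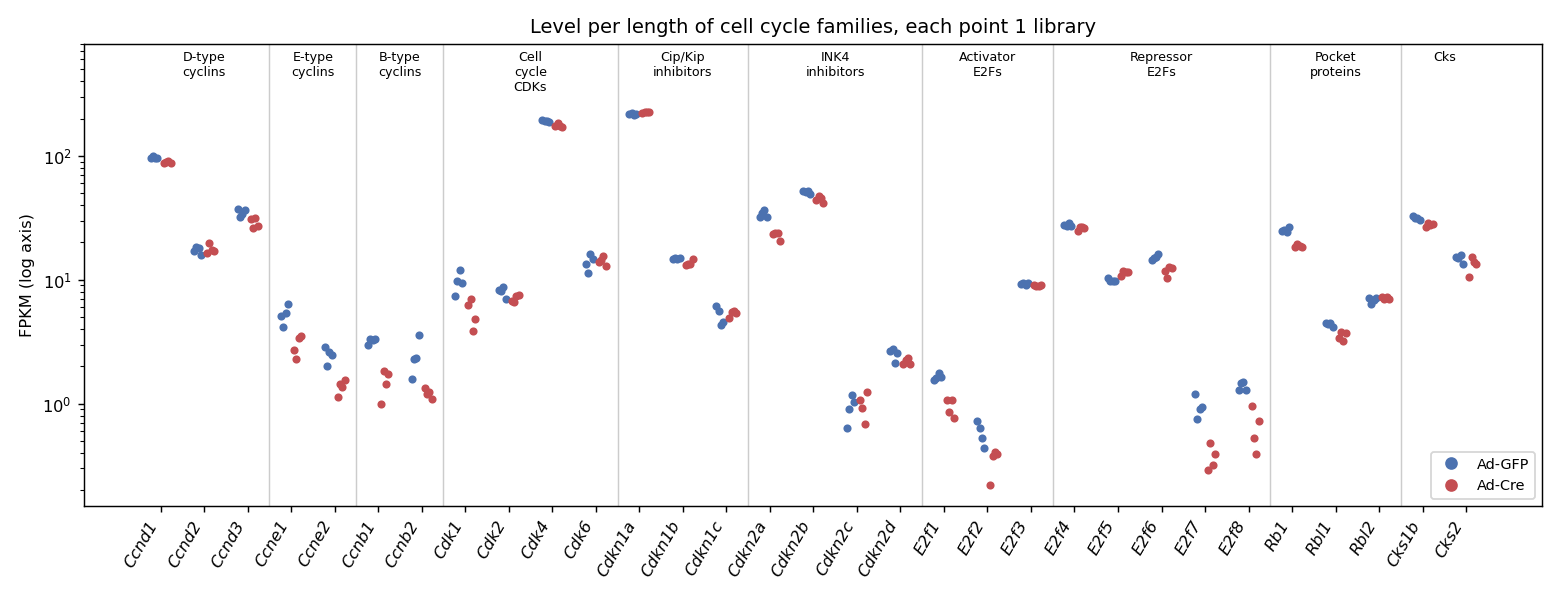
FPKM on a log axis (y axis) for members of 10 cell cycle families (x axis), each point 1 library, blue for Ad-GFP and red for Ad-Cre. Ccnd1, Cdk4 and Cdkn1a stand highest, while Ccne1, Ccne2, Ccnb1, Ccnb2, E2f1, E2f7 and E2f8 lie low with every red point under the blue ones.

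The genes of 3 further lists, which do not cover the rest of the cell cycle genes, had counts nearer those of all genes. Genes of DNA replication, the kinetochore and the kinesins were not listed. Of the 67 tested genes on these lists 17 fell (median log2 fold change -0.0011) and 9 rose, where 20.5% and 19.8% of all tested genes did. Of 28 other cyclins, CDKs and CDK-activating kinase genes 9 fell and 4 rose, with Cdk16 and Ccng1 having the smallest p-values among the falls (80.9% and 88.5% of Ad-GFP) and Cdk19 and Ccny among the rises (132.3% and 111.8%). The cyclin gene Ccnf, also on this list, fell to 58.2%, the only fall of at least 1.5-fold among the 67. Of 27 genes of the APC/C and of SCF ubiquitin ligases 5 fell and 4 rose. Ube2s, which extends ubiquitin chains for the APC/C, fell to 84.7% and Anapc15 to 75.2%, while Skp1 and Ube2d1 rose to 109.4% and 114.2%. Of 12 other DREAM, DP and RB-E2F partners 3 fell and 1 rose. Tfdp2, a DP subunit that dimerises with E2Fs, rose from 44.1 to 56.4 CPM (127.7%, adjusted p = 2.401e-07), and the kinase gene Dyrk1b and Hdac1 fell to 81.1% and 95.1%. The count of falls on this list was 1 in place of 3 without Ad-GFP replicate 2, without Ad-GFP replicate 4 and without Ad-Cre replicate 1. On the APC/C and SCF list 3 fell without Ad-GFP replicate 4 and 2 rose without Ad-Cre replicate 4, and on the DREAM partner list 2 rose without Ad-Cre replicate 4.

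Markers of other cell types moved with the same comparison, in which 20.5% of all tested genes fell and 19.8% rose. Of 14 tested endothelial markers 13 fell, and the 15 listed summed to 186.0 to 191.4 CPM in Ad-GFP against 91.3 to 102.9 in Ad-Cre, with falls to 48.3% for Cdh5 and 49.7% for Pecam1. Of 16 macrophage and leukocyte markers 12 fell, with sums of 337.6 to 391.7 and 294.0 to 304.6 CPM, and Lyz2 and Csf1r fell to 89.5% and 82.5%. Of 6 mural cell markers 4 fell, with sums of 265.2 to 278.9 and 231.8 to 244.6 CPM, and Mcam fell to 91.7% while Notch3, at 104.9%, did not pass the test. No marker on these lists was at 0 counts in all libraries. Their part in the cell cycle result was not tested. With every library thinned to the smallest total, 29 members fell and 3 rose, as at full depth.

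The authors' deposited table gave 28 members lower and 3 higher at an FDR under 0.05, against 9.76% and 8.9% of its 22322 genes. Those 28 and 3 were all called in the same direction here, and Cks1b (FDR 0.0672 in the authors' deposited table) was the fall called only here. Reads of some members cannot be fully told from those of another gene, since no source used here gives the strand setting of the counting. Exons of Ccnd1 overlap those of LTO1 over 1100 bases on the other strand, and such overlaps were 892 bases for Rbl2 with Gm45464, 693 for Rbl2 with Aktip, 641 for Cdk4 with Tspan31, 625 for Cdkn1c with Gm44732, 623 for Cdc25c with Gm3550, 610 for E2f8 with Gm2788, 609 for Ccne2 with Ints8, 592 for Ube2c with Tnnc2 and 510 for Ccna2 with Exosc9. Rb1 overlaps Rcbtb2 over 488 and Lpar6 over 408 bases, and other members' overlaps were shorter. Of the stretches of 75 bases in annotated transcripts, 26.9% of those of Cks2 and 18.9% of those of Ccnb1 also occur in transcripts of other genes, a Ccnb1 pseudogene among them.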

How the data were processed

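RNA sequencing of 8 libraries was analysed from 1 table. The authors deposited read counts per gene as whole numbers. FPKM values, group means, a log2 fold change, p-values and FDR stand beside them in the deposited table, per its headers, with no test named. Builds GRCm38 and mm10 are from the submitters' processing notes; no source used here gives the aligner or the counter.

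Counts were fitted with edgeR 4.0.16 in R 4.3.3 on all genes after filterByExpr (13337 of 22322 kept), with TMM factors of 0.992 to 1.01, and the group term (Ad-Cre over Ad-GFP) was tested by quasi-likelihood F-test with Benjamini-Hochberg adjustment over all tested genes and a threshold of 0.05. "Fell" and "rose" are used only for genes past it. Percentages are 2 to the power of the fitted log2 fold change. SEs are the log2 fold change over the square root of F, and 95% intervals use the 25.2 degrees of freedom of the fit. CPM uses TMM-scaled totals. Coordinates are from GENCODE M21 (GRCm38). The script was tested on simulated data.

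The members and lists were chosen with earlier results of these data known. Every member may be named; values in every library are given for the 5 called members of smallest p in each phase group, those called higher and a fixed set. From each further list the 2 called genes of smallest p in each direction are named, and from cell type lists the 2 of highest CPM. Other markers, and Ccnf, were chosen after their values were seen. Alternatives were RLE and upper-quartile factors, no filter, at least 5 CPM, DESeq2 1.42.0, limma-voom (limma 3.58.1), a replicate block, each library left out, thinning to the smallest total, and limma with pseudocounts of 1 or 0.1 on log2 FPKM values (mean of 1 FPKM or more). Replicates of a group differed by more than sampling noise (chi-square per degree of freedom 1.81 to 3.26), which does not show that they were separate cultures. Beyond sampling noise, the variation between libraries common to all genes was 2.89% (coefficient of variation, edgeR).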

Additional observations from a re-analysis of the deposited data

Results flagged for a closer look

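In 2 of the 98 groups of 4 libraries tested over 48 members and Suv39h1, 1 library stood apart from the other 3 by more of the group's range than Dixon's 95% critical value allows. Chance does this in about 1 in 20 groups. Cdkn2a was at 18.2 CPM in Ad-Cre replicate 4, where the other Ad-Cre libraries were at 20.8 to 21.3 CPM. E2f5 was at 18.3 CPM in Ad-GFP replicate 1, where the other Ad-GFP libraries were at 17.3 to 17.4 CPM. Cdkn2a was still called lower without its library, and E2f5 still higher without its own.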

How the results depend on the processing

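Over 18 alternatives 23 to 31 members were called lower and 1 to 3 higher, and none reversed. All 29 falls and 3 rises were kept without any 1 library. Of the 29, 28 were kept with DESeq2. With a filter at a mean of 5 CPM 21 were kept and on FPKM 26, where fewer members, 36 and 42, were tested. No label says that replicate numbers pair the samples. Same-number correlations were 0.0831, 0.104, 0.0076 and -0.0115, and those of unequal numbers -0.0885 to 0.0666. With 4 libraries per group these values cannot exclude pairing. The replicate block kept 29 falls and 3 rises. With that block 2 DREAM partners rose in place of 1.

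With limma on log2(FPKM + 1) and log2(FPKM + 0.1), 1400 and 1393 of all genes rose. In both, 1 member, 0 G1 entry genes, 0 G1/S genes and 2 other cyclins or CDKs rose. Of the E2F group 5 fell in both, with 11 members tested in place of 14, since E2f2, E2f7 and Mybl2 had a mean under 1 FPKM. The G1/S count of rises was also 0 with upper-quartile factors. At 5 CPM 9 members of the E2F group were tested and 4 fell, Foxm1 among them. DREAM partners lower were 1 with no filter and 1 with DESeq2. Leaving out each library gave 1 to 3 DREAM partners lower and 1 to 2 higher, and 3 to 6 APC/C and SCF genes lower and 2 to 5 higher. Beyond these differences in the members tested, the cause of the shifts was not tested.

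Counting only the stretch before the start, the CHR was in 25.2%, E2F-like letters in 7.89% and CCAAT in 33.8% of all promoters. On the forward strand alone these were 21.2%, 5.09% and 21.1%, with the CHR in 0% of the other S, G2 and mitosis promoters. Depth limits 11 members with a mean under 5 CPM, whose intervals are wide.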
